A study of Homo sapiens with 12 samples.

Results

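Alpha and beta tubulin together form the microtubule subunit, and human cells make each of them from several genes, called isotypes. The 10 isotype genes *TUBA1A*, *TUBA1B*, *TUBA1C*, *TUBB*, *TUBB2A*, *TUBB2B*, *TUBB3*, *TUBB4A*, *TUBB4B* and *TUBB6* were taken by their symbols from the gene tables of human neurons after *SMN* knockdown (*SMN*-KD). Of 16406 genes in the table of motor neurons and 19016 in the table of excitatory neurons, 12 rows in each carried one of the 10 symbols. All 10 genes were present in both tables on the identifier of the main genome annotation, and no member was missing. Each table has 2 further rows, and all of these carried the symbol *TUBB*. *TUBB* lies in a part of chromosome 6 that has alternate sequences in the genome assembly, and these rows stand on identifiers outside the main annotation. The identifiers of the main annotation are used below unless sums are named.

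The study holds 12 RNA-seq libraries in 4 groups of 3. Motor neurons (iMNs) were made from 1 induced pluripotent stem cell line that carries Td-Tomato under the HB9 promoter, and were sorted for that reporter. Excitatory neurons (i3Ns) were made from the H1 embryonic stem cell line by inducible NGN2, and their labels call them cortical. In each cell type, neurons received a lentiviral shRNA against *SMN1* and *SMN2* (*SMN*-KD) or a scrambled shRNA (SCR), and RNA was taken after 12 days. Both groups of a cell type therefore carried an shRNA and, in i3Ns, the NGN2 transgene. Each cell type rests on 1 line, so cell type, line and differentiation protocol cannot be told apart. The labels number the libraries within each group and name no separate differentiations, so the errors below cover the spread between these libraries, which may be technical.

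Values for single libraries were not used here. Each table gives a gene's mean normalized count over its 6 libraries, the log2 fold change with *SMN*-KD (relative to SCR) and its standard error (SE), and an adjusted p-value from the authors' DESeq2 fit. The mean of each group was derived from the first 2 of these, since both groups have 3 libraries. Depth per library is unknown. The summed *SMN1* and *SMN2* rows fell by 77.9% in iMNs, from 1923 to 424 normalized counts, and by 82.7% in i3Ns, from 1839 to 318. The markers of the labelled cell types did not all follow the labels. The motor neuron genes *MNX1*, *ISL1*, *ISL2* and *LHX3* had lower means in the iMN table (430, 1663, 70.6 and 15.1) than in the i3N table (2279, 14299, 3558 and 230). The other 3 motor neuron markers were higher in iMNs or about equal: *SLC5A7* had means of 8460 and 2472, *SLC18A3* 3115 and 1865, and *CHAT* 533 and 527. The spinal gene *HOXB9* had a mean of 33238 in iMNs and is not in the i3N table. Of the glutamatergic markers, *SLC17A7* had means of 6490 in i3Ns and 50.1 in iMNs, *SLC17A6* 11237 and 593, and *NEUROD1* 4039 and 88.8. *NEUROG2* went the other way, with 114 in i3Ns and 263 in iMNs. *NEUROD2* had a mean of 1215 in i3Ns and is not in the iMN table.

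Microtubules are hollow tubes of alpha-beta dimers, and they form the tracks and the frame of the axon. Isotypes of one family differ mainly in their C-terminal tails, where enzymes add and remove glutamates, glycines and tyrosine, and where motors and associated proteins bind. *TUBA1A* is the main alpha tubulin of developing neurons, *TUBB3* is the classic marker of neurons, *TUBB2A*, *TUBB2B* and *TUBB4A* are strongly expressed in brain, and *TUBA1B*, *TUBA1C*, *TUBB*, *TUBB4B* and *TUBB6* are made in many cell types. Cells also adjust the amount of tubulin mRNA to the pool of free dimers. When free dimers are in excess, the protein TTC5 binds the first amino acids of tubulin as they leave the ribosome, and the mRNA being translated is degraded.

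The coding starts are shown because they encode this shared signal, and because they show how alike the members' transcripts are. Each is the first 30 bases of the coding part of the MANE Select transcript in GENCODE release 44 (GRCh38), read 5′ to 3′ on the gene's strand, with the first 4 codons in capitals.
*TUBA1A*, *TUBA1B* and *TUBA1C*: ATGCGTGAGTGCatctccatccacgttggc
*TUBB*: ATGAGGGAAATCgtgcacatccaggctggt
*TUBB2A*: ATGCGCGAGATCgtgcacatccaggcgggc
*TUBB2B*: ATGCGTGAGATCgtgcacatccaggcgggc
*TUBB3*: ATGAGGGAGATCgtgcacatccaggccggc
*TUBB4A*: ATGCGGGAGATCgtgcacctgcaggccggc
*TUBB4B*: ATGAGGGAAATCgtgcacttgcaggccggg
*TUBB6*: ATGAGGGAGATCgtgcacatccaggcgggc

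The 30 bases were the same in the 3 alpha members. They encode Met-Arg-Glu-Cys in the 3 alpha members and Met-Arg-Glu-Ile in the 7 beta members. Of 19061 MANE Select coding parts, 19 (0.0997%) begin with one of these 2 tetrapeptides, and all 19 are alpha or beta tubulin genes. In the alpha members the first 3 coding bases lie in an exon of their own, so that the capitals span a splice junction. In the beta members the first coding exon holds 57 coding bases.

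By their MANE Select transcripts, the alpha members lie together on chromosome 12: *TUBA1B* at chr12:49127782-49131395 and *TUBA1A* at chr12:49184795-49189080, both on the minus strand, and *TUBA1C* at chr12:49265082-49274600 on the plus strand. *TUBB2A* (chr6:3153666-3157544) and *TUBB2B* (chr6:3224277-3227653) are neighbours on the minus strand of chromosome 6, 66732 bases apart. *TUBB* is further along the same chromosome (chr6:30720352-30725422, plus strand). *TUBB3* is at chr16:89923342-89936097 (plus strand), *TUBB4A* at chr19:6494319-6502309 (minus strand), *TUBB4B* at chr9:137241287-137243707 (plus strand) and *TUBB6* at chr18:12308241-12326616 (plus strand). Every member has 4 exons in this transcript.

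The likeness of the transcripts limits how well reads can be given to 1 isotype. The coding parts of *TUBA1A* and *TUBA1B* were 97.2% identical, and those of *TUBB2A* and *TUBB2B* 98.1%. The other 20 pairs of beta members were 80.9% to 90.1% identical, and alpha with beta pairs 52.2% to 53.6%. The share of a transcript's 31-base words that occur in no other annotated gene was 93.2% for *TUBB6*, 73.2% for *TUBB4B*, 60.3% for *TUBB4A*, 57.1% for *TUBB*, 49.4% for *TUBA1C*, 43.7% for *TUBB2B*, 36.2% for *TUBA1A* and 30.96% for *TUBB2A*. It was lowest for *TUBA1B* (6.57%) and *TUBB3* (5.97%). *TUBA1B* shared 70.3% of its words with its antisense gene *TUBA1B-AS1*, which is in neither table. *TUBB3* shared 92.8% with an overlapping gene that is not in the iMN table and has a mean of 3.23 in the i3N table. The coding part of *TUBA1C* was 95.9% identical to that of *TUBA1A* and 96.8% to that of *TUBA1B*, and 9.17% of its coding words were in no other gene. The alternate copies of *TUBB* were not among the genes searched, so its share leaves them out. Values of the 3 alpha members, of *TUBB2A* and *TUBB2B*, and of the single rows of *TUBB* therefore depend on how the authors' quantification split shared reads. The sums of all alpha and of all beta members are given below.

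In SCR neurons *TUBA1A* had the highest level of the members in both cell types. Levels of different genes are compared per kilobase (kb) of the MANE Select transcript, on the scale of normalized counts. *TUBA1A* stood at 122574 per kb in SCR iMNs and 110128 in SCR i3Ns. By its mean normalized count it ranked 6 of 16406 genes in iMNs and 7 of 19016 in i3Ns. Next, in the order of SCR iMNs, came *TUBB2B* (44760 and 42836 per kb in SCR iMNs and SCR i3Ns), *TUBB3* (41593 and 44528), *TUBB* with all its rows summed (31122 and 40970), *TUBA1B* (29255 and 23047) and *TUBB2A* (28559 and 20501). In SCR i3Ns *TUBB3* stood above *TUBB2B*. *TUBB4A* (4821 and 4409) and *TUBB4B* (2909 and 4098) followed at lower levels. *TUBB6* (351 and 624) and *TUBA1C* (119 and 249) were lowest. Together, all 12 rows held 1.03% of the summed mean normalized counts of the iMN table and 1.05% of the i3N table. The levels of SCR iMNs and SCR i3Ns come from tables that were normalized separately, so their differences were not tested.

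**Figure D1:**
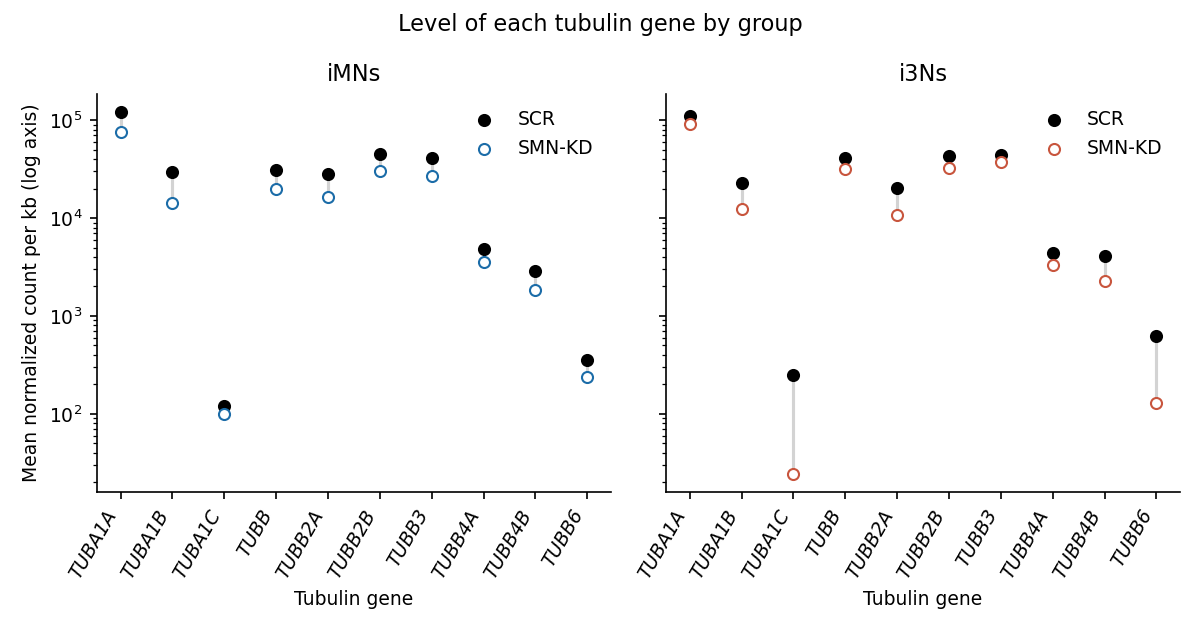
Derived mean normalized count per kb of transcript (log axis) of each tubulin gene in SCR (filled) and *SMN*-KD (open) neurons, iMNs on the left and i3Ns on the right, with no error bars since libraries are not given singly. *TUBA1A* is highest in every group (122574 per kb in SCR iMNs), and *TUBA1C* falls furthest, from 249 to 24.4 per kb in i3Ns.

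In iMNs, 9 of the 10 members fell after *SMN*-KD at an adjusted p-value under 0.01, and no member rose. Of all genes tested, 18.7% were lower at this threshold and 17.1% were higher. The SCR mean of *TUBA1A* was 204944 normalized counts and the *SMN*-KD mean 127073 (log2 fold change -0.69 ± 0.037 SE, adjusted p = 1.05e-75). *TUBA1B* went from 47597 to 23298 (-1.03 ± 0.038, adjusted p = 9.27e-158). It was the only member that also passed the study's fold threshold, an absolute log2 fold change above 1, as 2.37% of all genes did in the downward direction. The third alpha member, *TUBA1C*, stood at 336 in SCR and 282 in *SMN*-KD, and this difference did not pass (-0.25 ± 0.15, adjusted p = 0.102).

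The 7 beta members all fell in iMNs. *TUBB2A* fell by 42.1%, from 46152 to 26717 normalized counts (log2 fold change -0.79 ± 0.034). The neuronal *TUBB3* fell by 35.5%, from 70957 to 45766 (-0.63 ± 0.034), and *TUBB2B* by 31.5%, from 86028 to 58903 (-0.55 ± 0.030). *TUBB* fell by 37.3%, from 75319 to 47196 (-0.67 ± 0.034). *TUBB4B* fell by 37.0%, from 4546 to 2864 (-0.67 ± 0.053), and *TUBB4A* by 26.7%, from 10977 to 8047 (-0.45 ± 0.034). *TUBB6* fell by 31.9%, from 660 to 449 (-0.56 ± 0.11). Adjusted p-values of the authors' DESeq2 fit ranged from 1.20e-117 for *TUBB2A* to 5.88e-07 for *TUBB6*.

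The 9 members that fell in iMNs had log2 fold changes between -1.03 and -0.45. In the order of log2 fold changes, *TUBA1B* stood apart from *TUBB2A* by 0.24, which is 4.72 times the SE of that gap, with the errors of the 2 genes taken as independent. *TUBA1A*, *TUBB*, *TUBB4B*, *TUBB3*, *TUBB6* and *TUBB2B* followed, and no neighbours among these 6 differed beyond their error. Only neighbours were compared, and the ends of this run lay further apart, at -0.69 ± 0.037 (*TUBA1A*) and -0.55 ± 0.030 (*TUBB2B*). The median log2 fold change of the 10 members was -0.65, beside 0.00 for all genes of the table. The most abundant genes tended to lower values in iMNs. Of the 258 genes with a mean of at least 20000, 57.4% were lower at an adjusted p-value under 0.01, with a median of -0.14. The share of them that was higher was not counted. At a mean of at least 1000 the median was -0.003. The 6 members with a mean of at least 20000 all fell. Of the 7733 genes with a mean of at least 1000, 1.98% had a log2 fold change at or below that of *TUBA1B* and 5.10% at or below that of *TUBA1A*.

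In i3Ns, all 10 members fell at an adjusted p-value under 0.01, beside 25.7% of genes that were lower and 22.8% that were higher at this threshold. *TUBA1C* and *TUBB6* passed the fold threshold as well, as 9.53% of all genes did downward. *TUBA1C* went from 702 normalized counts to 68.9 (log2 fold change -3.35 ± 0.16, adjusted p = 2.09e-100), which leaves it at the lowest level of any member in any group. *TUBB6* went from 1173 to 244 (-2.27 ± 0.11, adjusted p = 1.18e-89). Over all genes of this table, 1.10% had a log2 fold change at or below that of *TUBA1C* and 3.02% at or below that of *TUBB6*.

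The other 8 members had log2 fold changes between -0.92 and -0.24 in i3Ns. *TUBA1A* fell by 16.4%, from 184134 to 153943 normalized counts (-0.26 ± 0.028), *TUBB* by 16.3%, from 69433 to 58147 (-0.26 ± 0.026), and *TUBB3* by 15.6%, from 75964 to 64144 (-0.24 ± 0.027). By the main rows these 3 were the smallest changes of the family, and neighbours among them did not differ beyond their error. With all its rows summed, as given below, *TUBB* stood at -0.38 ± 0.022, further from 0 than *TUBA1A* and *TUBB3*. *TUBB2B* fell by 23.9% (-0.39 ± 0.028) and *TUBB4A* by 25.4% (-0.42 ± 0.036). A group of 3 fell further: *TUBB2A* by 47.3%, from 33130 to 17463 (-0.92 ± 0.028), *TUBA1B* by 46.8%, from 37497 to 19953 (-0.91 ± 0.028), and *TUBB4B* by 44.6%, from 6406 to 3548 (-0.85 ± 0.047). No neighbours among these 3 differed beyond their error, and a gap of 0.43, 7.25 times its SE, separated *TUBB4B* from *TUBB4A*. The median of the 10 members was -0.64, beside 0.01 for all genes. Of the 258 genes of this table with a mean of at least 20000, 49.6% were lower, with a median of -0.10. The share of them that was higher was not counted, and at a mean of at least 1000 the median was 0.01. Of the 7767 genes with a mean of at least 1000, 27.6% had a log2 fold change at or below that of *TUBA1A*. This share was 27.8% for *TUBB* on its main row, 28.5% for *TUBB3*, 20.4% for *TUBB2B* and 19.3% for *TUBB4A*. For *TUBB2A*, *TUBA1B* and *TUBB4B* it was 7.06%, 7.20% and 7.94%.

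**Figure D2:**
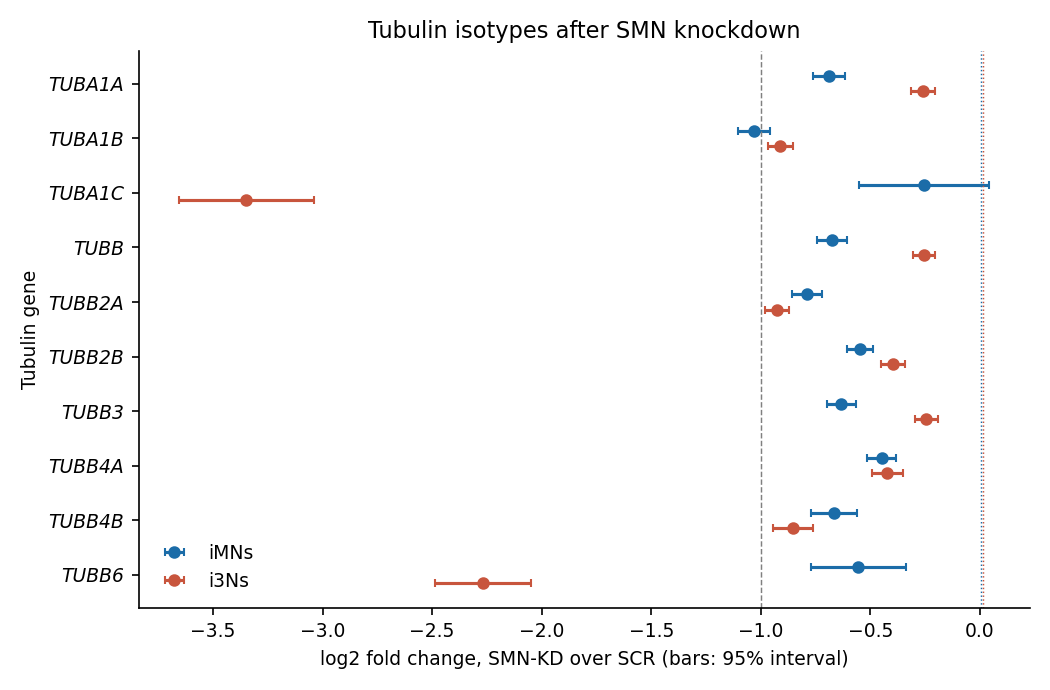
log2 fold change after *SMN*-KD, relative to SCR, for each tubulin gene in iMNs (blue) and i3Ns (red), with 95% intervals from the SE. The dashed line marks -1 and the dotted lines the median of genes with a mean of at least 100. All points lie below 0, and *TUBA1C* (-3.35) and *TUBB6* (-2.27) in i3Ns lie far from the rest.

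The other rows that carry the symbol *TUBB* had values of their own. In iMNs they had means of 2074 (-0.40 ± 0.23, adjusted p = 0.0449) and 480 (-0.70 ± 0.24, adjusted p = 0.00125), and their sum with the main row fell by 37.0%. In i3Ns a row with a mean of 27121, whose identifier is not in the iMN table, fell by 37.1% (-0.67 ± 0.045), while a row with a mean of 286 did not pass (-0.14 ± 0.18, adjusted p = 0.521). With all rows summed, *TUBB* in i3Ns went from 103041 to 79353, a log2 ratio of -0.38 ± 0.022 in place of -0.26. Reads of copies with shared sequence can be divided between rows, and the set of rows differed between the tables, so both values are given.

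*TUBA1C* and *TUBB6*, the members with the lowest levels, had the largest falls in i3Ns, where 9.53% of all genes passed both thresholds downward. Most markers of other cells also fell in i3Ns, and so did motor neuron markers. Of 5 proliferation markers in the i3N table, 4 fell in *SMN*-KD, from a summed 3138 normalized counts to 1582 with *PCNA* included. *MKI67* went from 938 to 106 and *TOP2A* from 558 to 63.6. Of 6 mesenchymal markers, 5 fell, and the summed list went from 11302 to 1148. *COL1A1* went from 7795 to 660 and *COL3A1* from 1983 to 123. *DCN*, a defining mesenchymal gene, was near 0 in both groups (3.96 and 3.83). Of 4 glial markers, *OLIG1*, *OLIG2* and *MBP* fell. In iMNs no marker of these 3 lists fell. The sum of 4 proliferation markers went from 763 to 914 and that of 3 glial markers, none of which passed, from 423 to 392. Of 5 mesenchymal markers 3 rose, *COL1A1* from 908 to 1735. Pan-neuronal markers moved both ways: of 6, 2 rose and 4 fell in iMNs, and 1 rose and 4 fell in i3Ns. *SYT1* had the largest change in both and rose by 40.1% and 59.5%, while *STMN2* fell by 16.9% and 9.44%. Of 7 motor neuron markers, 1 rose and 4 fell in iMNs, where their sum went from 17041 to 11534, and 1 rose and 5 fell in i3Ns, where it went from 27972 to 22489. The cholinergic genes *CHAT* (from 725 to 340 in iMNs and from 937 to 117 in i3Ns) and *SLC5A7* (from 10716 to 6205 and from 3873 to 1071) were among those that fell in both. Of 5 glutamatergic markers in i3Ns, 2 rose and 2 fell. *NEUROD1* rose from 1270 to 6808 and *NEUROG2* from 83.5 to 145. *SLC17A6* fell from 14027 to 8447 and *SLC17A7* from 8038 to 4941. Of 4 in iMNs, 1 fell, *SLC17A6* from 737 to 449, and none rose. The part of such shifts in the tubulin values was not tested. The part of other cells in the fall of *TUBA1C* and *TUBB6* was not tested. In bulk samples fewer cells of a type and less RNA per cell cannot be told apart.

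The responses of the cell types were compared directly by a Wald test of the difference between the 2 log2 fold changes, adjusted over the 16093 genes in both tables. The libraries of the 2 comparisons are separate. At an adjusted p-value under 0.01, 34% of all these genes differed, and 7 of the 10 members did. The 34% covers genes of every level, while 8 of the members have a mean of at least 1000 in both cell types. No share was computed for genes of like level, so the 2 shares are not matched. *TUBA1A* fell more in iMNs, with a log2 fold change higher by 0.43 in i3Ns (95% interval 0.34 to 0.52, adjusted p = 3.38e-19). *TUBB* (0.42, 0.33 to 0.50) and *TUBB3* (0.39, 0.30 to 0.47) differed in the same direction, and so did *TUBB2B* (0.15, 0.07 to 0.23). For *TUBB* the difference was 0.29 ± 0.040 SE with all rows summed. *TUBA1C* (-3.09, -3.52 to -2.67), *TUBB6* (-1.71, -2.02 to -1.40) and *TUBB2A* (-0.14, -0.22 to -0.05) fell more in i3Ns. *TUBA1B* (0.12, 0.03 to 0.21, adjusted p = 0.0296), *TUBB4B* (-0.19, -0.33 to -0.05, adjusted p = 0.0238) and *TUBB4A* (0.03, -0.07 to 0.12, adjusted p = 0.736) did not pass.

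**Figure D3:**
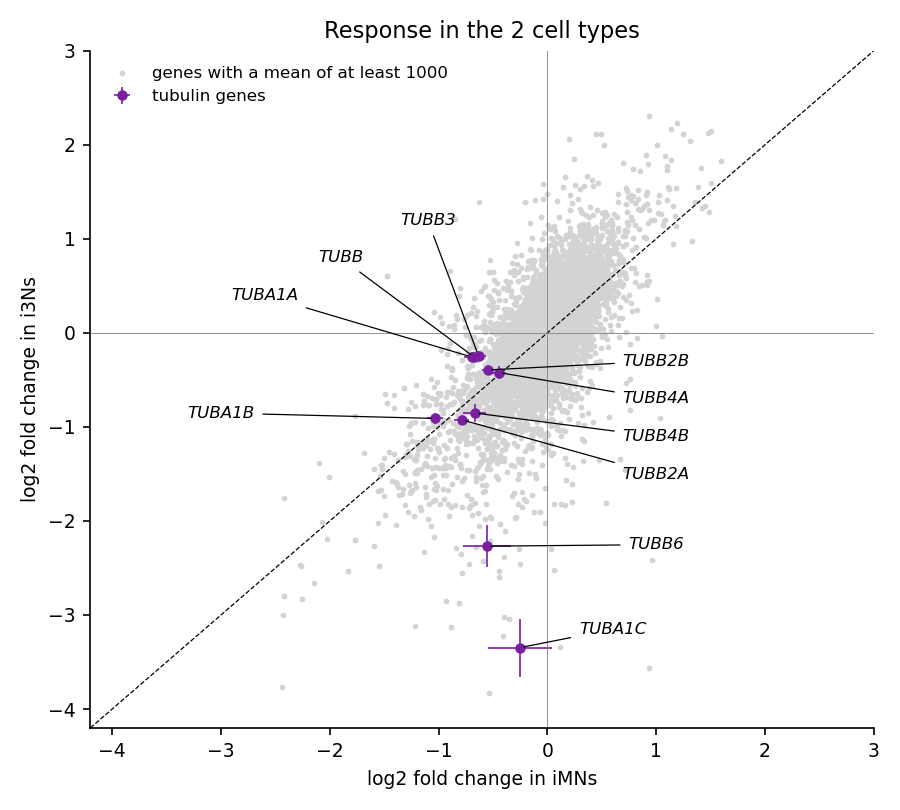
log2 fold change in i3Ns against that in iMNs for 6960 genes with a mean of at least 1000 in both tables (grey) and the 10 tubulin genes (purple, with 95% intervals); the dashed line marks equal values. *TUBA1A*, *TUBB* and *TUBB3* lie together above the line near -0.25 on the vertical axis, and *TUBB6* and *TUBA1C* lie far below it.

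Summed over genes, alpha and beta tubulin transcripts fell together. In iMNs the alpha members went from 252877 to 150653 normalized counts (log2 ratio -0.75 ± 0.031 SE) and the beta members, with all *TUBB* rows, from 297592 to 192095 (-0.63 ± 0.016). These are falls of 40.4% and 35.5%. In i3Ns the alpha sum went from 222333 to 173966 (-0.35 ± 0.024) and the beta sum from 312085 to 234881 (-0.41 ± 0.013), falls of 21.8% and 24.7%. Errors of the genes in a sum were taken as independent. The 2 families were near balance per kb in every group, with a ratio of beta to alpha of 1.01 in SCR iMNs, 1.10 in *SMN*-KD iMNs, 1.18 in SCR i3Ns and 1.13 in *SMN*-KD i3Ns. The sums fell more in iMNs, by a log2 difference of 0.39 ± 0.040 for alpha and 0.22 ± 0.020 for beta.

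Within the alpha family *TUBA1A* held a larger derived share in *SMN*-KD than in SCR in both cell types. Its share of the summed alpha level per kb was 80.7% in SCR iMNs and 84.1% in *SMN*-KD iMNs, and 82.5% and 88.2% in i3Ns. The share of *TUBA1B* went from 19.3% to 15.8% in iMNs and from 17.3% to 11.8% in i3Ns. *TUBA1C* held 0.0784% in SCR iMNs and 0.186% in SCR i3Ns. Within the beta family the share of *TUBB2A* went from 18.5% to 16.7% in iMNs and from 13.0% to 9.14% in i3Ns. *TUBB3* stayed at 27.0% in iMNs and went from 28.2% to 31.8% in i3Ns. *TUBB2B* held 29.0% and 30.9% in iMNs and 27.1% and 27.6% in i3Ns. Shares were not tested, since libraries are not given singly, and those of pairs with near-identical coding parts carry the uncertainty of the read split.

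**Figure D4:**
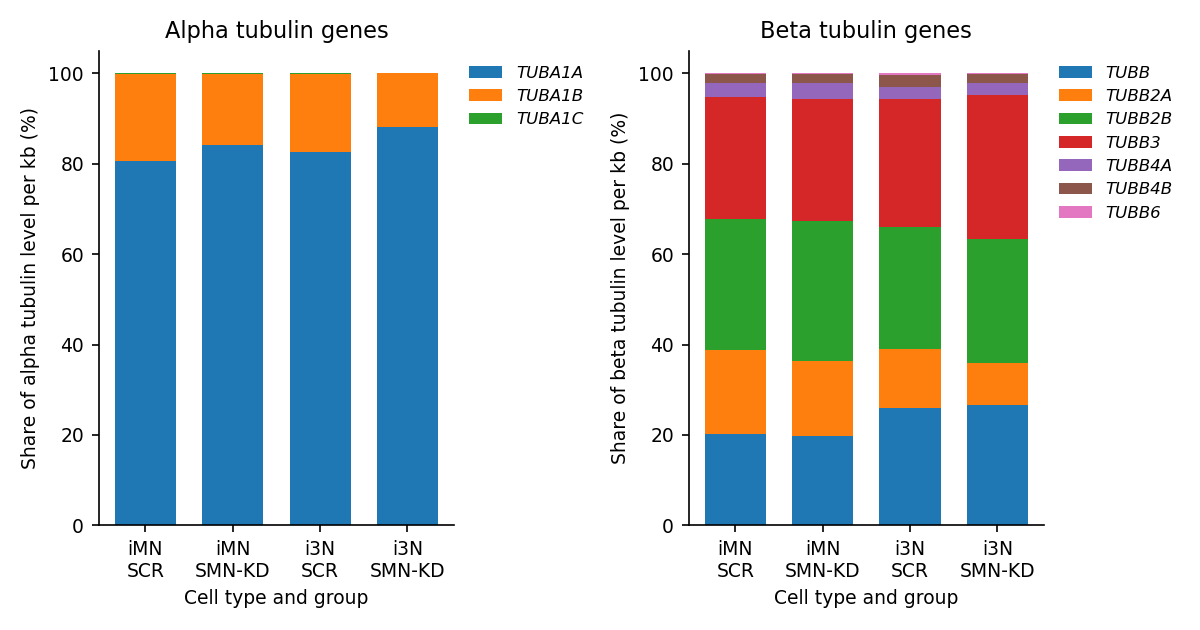
Share of each isotype in the summed alpha (left) and beta (right) tubulin level per kb, in percent, in the 4 groups; each bar adds up to 100%. *TUBA1A* holds 80.7% to 88.2% of the alpha level, and *TUBB2A* goes from 18.5% to 16.7% in iMNs and from 13.0% to 9.14% in i3Ns.

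*TUBB2A* was also the only member whose 3′-UTR holds a match to the seed of the *SMN* shRNA. Seeds were searched as the 7-base words CTAATAA and GCTAATA for the *SMN* guide and CTAGTAA and ACTAGTA for the scrambled guide, on the sense strand of MANE Select 3′-UTRs. The matching site of *TUBB2A* is shown because the shRNA is present only in *SMN*-KD libraries. It lies at chr6:3153684-3153690 (GRCh38, minus strand), from base 173 of the 197-base 3′-UTR, with the match in capitals.
*TUBB2A* 3′-UTR: atctataCTAATAAaaaagcat
The match overlaps an AATAAA, the word of the polyadenylation signal. Among 18780 3′-UTRs, 17.2% hold a match to the *SMN* guide and 9.87% to the scrambled guide, which none of the members does. A match of this length is a description of the letters only. *TUBB2A* fell by 42.1% in iMNs and 47.3% in i3Ns. Its neighbour *TUBB2B*, with a near-identical coding part and no match, fell by 31.5% and 23.9%. Members without a match ranged in iMNs from 16.1% lower (*TUBA1C*, which did not pass) to 51.1% lower (*TUBA1B*). In i3Ns they ranged from 15.6% lower (*TUBB3*) to 90.2% lower (*TUBA1C*). Any part of the shRNA itself in these falls was not tested.

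Other tubulin genes gave a mixed picture. Of 12 further tubulins, 6 were in the iMN table and 7 in the i3N table. *TUBA4A*, an alpha tubulin that begins with the same tetrapeptide, fell from 370 to 210 normalized counts in i3Ns (log2 fold change -0.82 ± 0.20). In iMNs it stood at 205 and 164 and did not pass (-0.32 ± 0.17, adjusted p = 0.0566). *TUBA8* stood at 46.4 and 49.4 in SCR and *SMN*-KD iMNs and at 44.5 and 44.2 in i3Ns, *TUBB8* stood at 5.27 and 5.58 in i3Ns, and neither passed. In all, the tables hold 12 and 13 of the 19 genes that encode the tetrapeptide. Of these, 9 fell in iMNs and 11 in i3Ns, and none rose, but these counts include the 10 members. Of the genes that are not members, 0 of 2 fell in iMNs and 1 of 3 in i3Ns. Of all genes, 18.7% and 25.7% were lower. Among the 4 tubulins without the tetrapeptide, gamma tubulin *TUBG1*, which nucleates microtubules, fell in both cell types (-0.25 ± 0.066 and -0.22 ± 0.059). Its relative *TUBG2* fell in iMNs (-0.33 ± 0.094) and did not pass in i3Ns (0.05 ± 0.12). The centriolar tubulin *TUBE1* rose in iMNs (0.38 ± 0.12) and did not pass in i3Ns (0.15 ± 0.11), and *TUBD1* passed in neither. The pseudogene *TUBBP5*, which shares 8.48% of the words of *TUBB4B*, fell from low levels in both, by 0.62 and 2.05 on the log2 scale.

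Genes that fold tubulin moved in both directions. New tubulin passes through prefoldin and the chaperonin CCT, and cofactors then join alpha to beta. Of the 15 chaperonin and prefoldin genes, 7 rose and 2 fell in iMNs, with a median log2 fold change of 0.11, and 2 rose and 7 fell in i3Ns, with a median of -0.09. Lists stand beside the shares given above for all genes, 18.7% lower and 17.1% higher in iMNs and 25.7% and 22.8% in i3Ns. The prefoldin subunit gene *VBP1* rose in iMNs from a mean of 1119 to 2305 (1.04 ± 0.066) and in i3Ns from 890 to 2145 (1.27 ± 0.066). *PFDN6*, another prefoldin subunit, fell from 753 to 221 (-1.77 ± 0.12) and from 750 to 213 (-1.82 ± 0.12). With all its rows summed, the log2 ratio of *PFDN6* was -1.61 and -1.75. The CCT subunit gene *CCT6A* fell in both (-0.46 ± 0.038 and -0.63 ± 0.052). *CCT3* rose in iMNs (0.25 ± 0.043), and *PFDN1* fell in i3Ns (-0.47 ± 0.055).

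Of 7 folding cofactor genes, 2 rose and 2 fell in iMNs, and 3 rose and 1 fell in i3Ns. *ARL2*, the small GTPase that works with the cofactors, fell in both cell types (-0.40 ± 0.066 in iMNs and -0.88 ± 0.084 in i3Ns). *TBCD* rose in both on the row that was counted (0.20 ± 0.055 and 0.34 ± 0.070). A further row with its symbol did not pass in iMNs (-0.12 ± 0.11) and rose in i3Ns (0.56 ± 0.15). The log2 ratio of the summed *TBCD* rows was 0.16 ± 0.050 in iMNs and 0.35 ± 0.066 in i3Ns. *TBCA*, which binds beta tubulin, rose in iMNs (0.22 ± 0.054), where *TBCB*, which binds alpha tubulin, fell (-0.13 ± 0.041). *TBCE* did not pass on the row that was counted (0.14 ± 0.076 and 0.13 ± 0.085), but a further row with its symbol rose in both (0.54 ± 0.10 and 0.92 ± 0.12), and the log2 ratio of the summed rows was 0.28 ± 0.061 in iMNs and 0.48 ± 0.069 in i3Ns. *TBCC* (0.53 ± 0.071) and *TBCEL* (0.52 ± 0.058) rose in i3Ns.

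The genes of tubulin mRNA autoregulation showed small differences. *TTC5*, which reads the tetrapeptide, stood at 1921 and 1891 normalized counts in SCR and *SMN*-KD iMNs (-0.02 ± 0.074, adjusted p = 0.835). In i3Ns it fell from 1857 to 1429 (-0.38 ± 0.076, adjusted p = 1.80e-06). *SCAPER*, which links TTC5 to the CCR4-NOT deadenylase, fell in both cell types (-0.31 ± 0.046 and -0.31 ± 0.059). Of the CCR4-NOT subunits, *CNOT11* rose in iMNs (0.26 ± 0.064) and *CNOT3* in i3Ns (0.40 ± 0.086). *CNOT1* passed in neither, and *CNOT2* was in neither table.

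The enzymes that modify tubulin were divided. Of 24 genes measured in iMNs, 2 rose and 9 fell, and of 25 in i3Ns, 6 rose and 7 fell. *TPGS1*, a subunit of the polyglutamylase complex, fell in iMNs from a mean of 860 to 301 (-1.51 ± 0.11) and in i3Ns from 504 to 285 (-0.83 ± 0.12). The tubulin acetyltransferase gene *ATAT1* fell in both (-0.61 ± 0.055 and -0.55 ± 0.062). With all 3 rows that carry its symbol summed, its log2 ratios were -0.58 and -0.45. In iMNs the deglutamylase gene *AGBL4* (-0.64 ± 0.10) and the polyglutamylase gene *TTLL7* (-0.48 ± 0.093) also fell. In i3Ns the ligase genes *TTLL11* (0.70 ± 0.073) and *TTLL3* (0.68 ± 0.13) rose.

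Among the 10 genes of gamma-tubulin nucleation, *MZT1*, a small subunit of the ring complex, fell in iMNs from a mean of 341 to 160 (-1.09 ± 0.17) and in i3Ns from 911 to 278 (-1.71 ± 0.12). *NEDD1*, which recruits the ring complex, rose in i3Ns from 477 to 1209 (1.34 ± 0.099), with 175 and 151 in iMNs (-0.21 ± 0.22, adjusted p = 0.288). *CDK5RAP2* rose in i3Ns (0.52 ± 0.080). The ring subunit genes *TUBGCP2* (-0.21 ± 0.065) fell and *TUBGCP6* (0.15 ± 0.045) rose in iMNs, and 7 of the 10 genes passed in neither direction in each table. Of 9 severing genes, 1 rose and 2 fell in iMNs, and 4 rose and 2 fell in i3Ns. *SPAST*, the spastin gene mutated in hereditary spastic paraplegia, rose in both (0.25 ± 0.042 and 0.74 ± 0.044). *KATNAL1* fell in both (-0.32 ± 0.038 and -0.80 ± 0.048). *FIGN* (fidgetin) fell in iMNs from 1880 to 910 (-1.05 ± 0.098) and rose in i3Ns (0.22 ± 0.076), a difference of 1.26 (95% interval 1.02 to 1.51, adjusted p = 4.20e-23). *FIGNL2* fell (-0.71 ± 0.095) and *KATNAL2* rose (0.90 ± 0.28) in i3Ns.

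**Figure D5:**
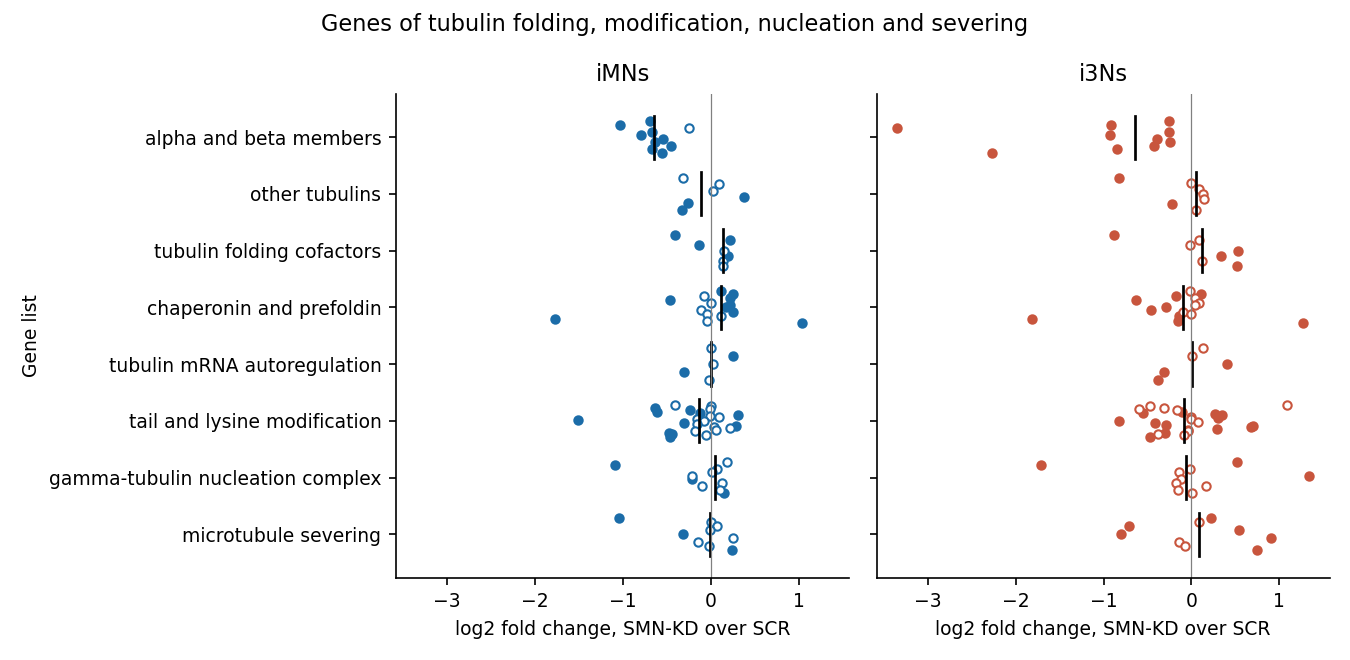
log2 fold change after *SMN*-KD, relative to SCR, for the 10 tubulin genes and the genes of the 7 lists, in iMNs (left) and i3Ns (right). Filled points passed an adjusted p-value under 0.01, open points did not, and the black bar marks each list's median, which is -0.65 in iMNs and -0.64 in i3Ns for the tubulin genes and between -0.14 and 0.14 for the other lists.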

How the data were processed

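RNA was depleted of ribosomal RNA and sequenced as read pairs in 12 libraries. The submitters' processing notes name fastp, Salmon, DESeq2 and STAR and the build hg38, and the authors quantified transcripts with Salmon and compared groups with DESeq2, without stating versions, the annotation or a filter in the sources used here. The deposited tables, 1 per cell type, hold the mean signal of a gene (counts divided by size factors, averaged over 6 libraries). They also hold the deposited log2 fold change with its SE on the log2 scale, and the deposited p-value with its Benjamini-Hochberg adjusted value. These columns are the authors' own comparison, and they were used because the tables hold no counts per library. A count test, planned only for the case that counts per library were given, could not be run. No replicate could be left out, and depth per library is unknown. The authors' fold changes appear shrunken at low counts: fold change over SE was a median 0.48 (iMNs) and 0.65 (i3Ns) of the z of the p-value for genes with a mean under 100, and 0.99 and 1.00 for the members. The lowest value of a member was 0.86, for *TUBA1C* in iMNs, and its difference between the cell types rests on that fold change.

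Calls used an adjusted p-value under 0.01, alone or with an absolute log2 fold change above 1. Group means were derived as the 2 values that have the deposited mean as their average and the deposited fold as their ratio. Differences between cell types were tested by a Wald z with Benjamini-Hochberg adjustment over 16093 genes (Python 3.11.15, scipy). The script was tested on simulated data. Lengths, positions and sequences are from GENCODE release 44. The members and lists were chosen with earlier results of these data known. Named are all members, all other tubulins, and from each further pathway list at most 4 genes per cell type with the largest change among those past the adjusted p-value with a mean of at least 100. *TUBBP5*, *HOXB9*, *TBCE*, *TTC5* in iMNs, *CNOT1*, *CNOT2*, *NEDD1* in iMNs and *FIGN* in i3Ns were named beside these after their values were seen, as were the marker genes of cell types. Where a listed symbol stands on several identifiers, the one with the highest mean was counted. Abundance classes of at least 1000 and 20000 were added after the data were seen.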

Additional observations from a re-analysis of the deposited data

Results flagged for a closer look

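The response of 7 members differed between iMNs and i3Ns by the Wald test of the difference in log2 fold change (i3Ns minus iMNs). The values were 0.43 for *TUBA1A*, 0.42 for *TUBB*, 0.39 for *TUBB3*, 0.15 for *TUBB2B*, -0.14 for *TUBB2A*, -1.71 for *TUBB6* and -3.09 for *TUBA1C*. Of all genes in both tables, 34% differed at the same threshold, a share that was not matched to the level of the members. The lowest-level members, *TUBA1C* and *TUBB6*, had their largest falls in i3Ns. Most proliferation, mesenchymal, glial and motor neuron markers fell there too, among them the cholinergic genes *CHAT* and *SLC5A7*. The markers *PCNA* and *DCN* did not pass, and pan-neuronal and glutamatergic markers moved both ways, as given in the report. The part of such shifts in the tubulin values was not tested. Each cell type is 1 line with its own differentiation, and these cannot be told apart.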

How the results depend on the processing

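No paired analysis was possible because the tables hold no values of single libraries, although the labels give the groups the same replicate numbers. For the same reason no replicate could be left out, and neither another normalization of the counts nor a filter on counts of single libraries could be tried. With a threshold of 0.5 on the absolute log2 fold change, 8 members in place of 1 passed in iMNs and 5 in place of 2 in i3Ns. The share of *TUBB3* in the beta level of SCR neurons was 23.8% in iMNs and 24.3% in i3Ns without division by length, in place of 27.0% and 28.2%. The summed beta members in i3Ns had a log2 ratio of -0.38 with only the main identifier of each gene, in place of -0.41. With doubled SEs, *TUBB6* no longer passed in iMNs, and 5 in place of 7 members differed between the cell types, without *TUBB2A* and *TUBB2B*. The other alternatives left counts within 1.5 times and, in 100 cases of single members, direction and call: adjusted p-values under 0.05 and 0.001, centring on the median of genes with a mean of at least 100 (0.01 in both tables), doubled SEs, and genes with a mean of at least 100 only. Precision rests on 3 libraries a group, and SEs were largest for *TUBA1C* and *TUBB6*.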
